A study of Mus musculus with 4 samples.

Results

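Listed m6A sites in 11 families of chromatin regulators were examined in 4 libraries from sorted glia of the mouse cortex. Members were chosen by gene name alone: names beginning with Kmt, Kdm, Setd, Chd, Arid, Hdac, Brd or Asxl followed by a digit, and names beginning with Smarc, Ncor, Bcor, Crebbp, Ep300 or Ep400. This gave 168 distinct sites in 56 genes, out of 10598 distinct sites in 5526 named genes and 25595 distinct sites in all. Because a site can be listed in more than 1 library, the 168 sites make up 193 listed entries. All 4 libraries came from mice of the genotype APOBEC1-YTH, named for the RNA-editing enzyme APOBEC1 joined to a YTH domain that binds m6A, aged 10 weeks when tamoxifen was started at 20 mg/kg every 24 hours for 5 days, with tissue taken 7 days after the last dose. The driver of the transgene is not given in the sources used here, nor is the number of mice behind a library. Astrocytes were sorted with an antibody to ACSA2 and microglia with an antibody to CD11b, with 2 libraries of each label, and each library was treated by GLORI. In GLORI, unmethylated adenosine is deaminated chemically and read as G, so the share of reads still showing A at a position is taken as its m6A level.

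N6-methyladenosine is placed on nascent messenger RNA by the METTL3 and METTL14 methyltransferase, mostly at an A followed by C, and is most frequent in long internal exons and around the stop codon. Proteins with a YTH domain bind it, and a common outcome is faster decay of the transcript. The genes described here encode enzymes and complex subunits that write, remove or bind histone marks or move nucleosomes. Many have long transcripts, several are dosage sensitive in human neurodevelopment, and m6A on the transcripts of the acetyltransferases Crebbp and Ep300 has been described in neural stem cells.

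The labels of the replicate 2 libraries did not match their marker sites. Of 15 astrocyte markers, the libraries labelled astrocyte 1 and astrocyte 2 listed 12 and 1, and those labelled microglia 1 and microglia 2 listed 0 and 11. Of 15 microglia markers, the libraries labelled astrocyte listed 2 and 12 and those labelled microglia listed 11 and 0, counting genes with at least 1 site. Oligodendrocyte markers had sites in 7 of 10 genes in both astrocyte 1 and microglia 2, with 13 and 16 sites, and in 0 of 10 in the others. Each of the remaining marker lists, for neurons, precursors of oligodendrocytes, vessel cells and border or blood myeloid cells, had at most 7 sites in any library. The part of cell identity and of these other cells in the values below was not tested. Libraries are therefore called by their labels (astrocyte 1 and so on) as names, and directions between labels are given for each replicate number as well. Read depth is unknown. The number of sites in named genes ran from 1066 in microglia 1 to 4790 in astrocyte 1, and a site that is not listed may have no m6A, too few reads or a level under the calling threshold. Within one library, few cells of a type and little RNA per cell cannot be told apart.

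The only sequence deposited with each site is the 3-mer centred on the methylated A, and in every case it is GAC or AAC. GAC was the 3-mer of 119 of the 168 member sites, or 70.8% (95% Clopper-Pearson interval 63.3 to 77.6, counting sites only). The share was 67.2% of 10430 distinct sites in other named genes, inside that interval. All sites of a member gene lay on 1 strand. In 4 of the 168 sites the centre A was written in lower case, the usual mark of repeat sequence in a genome file, a share of 2.38% (0.652 to 5.98). Other named genes stood at 4.93%. Exon, intron and UTR positions were not determined, because no annotation of mm39 was used here.

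A RefSeq table of an earlier mouse build holds 97 protein-coding symbols that fit the name rule, and all 56 members matched one of them. A site in at least 1 library was therefore listed for 57.7% of these symbols, where the background over all 21896 protein-coding symbols was 22%. Astrocyte 1 listed 38 member genes (39.2% of 97, background 12.8%), astrocyte 2 listed 30 (30.9%, background 6.87%), microglia 1 listed 12 (12.4%, background 3.07%) and microglia 2 listed 31 (32.0%, background 10.8%). The share thus stood above the background in each of the 4 libraries. Expression and transcript length are not in the tables, and their part in this was not tested. Crebbp, Ep300 and Ep400 each had a site, as did 7 of 8 Kmt and 8 of 10 Chd symbols. Coverage was lower in Brd, with 3 of 9, in Hdac, with 5 of 11, and in Smarc, with 6 of 13. Symbols were counted by name alone, so those of Brd include Brd3os and Brd8dc, neither with a site. Among the 41 symbols with no listed site were Hdac1 and Hdac2, the deacetylases of the NuRD and Sin3 corepressor complexes, Kdm1a, the demethylase LSD1, Ncor1, Smarcb1 and Arid1b. By listed entries the largest family was Kmt, with 55 of 193, followed by Kdm and Chd with 27 each and Arid with 20.

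**Figure D1:**
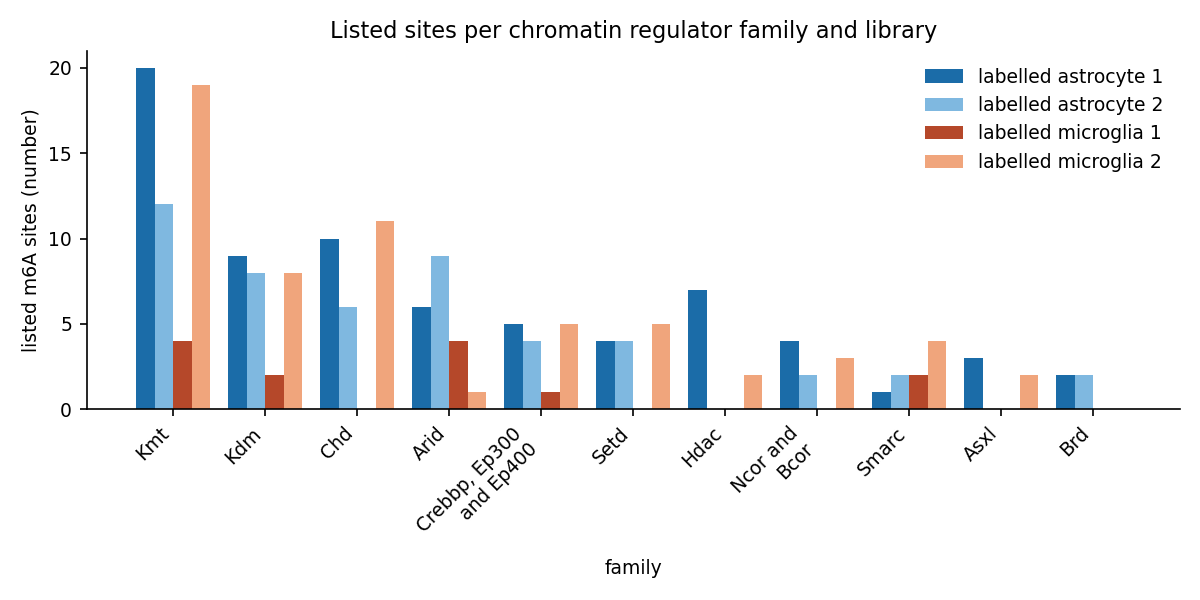
Listed m6A sites (number, vertical axis) in each chromatin regulator family (horizontal axis, ordered by total entries), with 1 bar per library, named by its label. Kmt leads with 20, 12, 4 and 19 sites in astrocyte 1 and 2 and microglia 1 and 2, while Setd, Chd, Hdac, Brd, Asxl, and Ncor with Bcor have no bar in microglia 1.

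Most Kmt2 genes encode methyltransferases of lysine 4 on histone H3. Kmt2d, which acts mainly at enhancers, had 24 distinct sites, the most of any of the 5526 named genes, the next having 21. It held 14.3% of all member sites. Astrocyte 1 listed 11 sites in Kmt2d, astrocyte 2 listed 8, microglia 1 listed 2 and microglia 2 listed 9. Within each library it ranked 4th, 5th, 21st and 3rd by number of sites, counted from the highest, with ties at the same rank. The level ran from 45.5% to 100% in astrocyte 1 (median 64.7%), from 33.3% to 100% in astrocyte 2 (median 92.9%) and from 40% to 100% in microglia 2 (median 69.2%). Microglia 1 listed its sites at 66.7% and 85.7%. The ranges overlapped in all 4 libraries. In 20 of the 24 sites the 3-mer was GAC.

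The Kmt2d sites spanned 38.5 kb on the minus strand of chromosome 15 (98730984 to 98769528, mm39) and lay in 7 runs when sites up to 1 kb apart were joined, a distance chosen after the positions were seen. The densest run held 8 sites between 7.75 and 9.46 kb downstream of the most upstream site, and a further 4 lay between 31.4 and 32.0 kb. Of the 24 sites, 6 were listed in 2 libraries and none in more. The base at 98751288 stood at 85.7% in astrocyte 2 and 92.9% in microglia 2, and that at 98744168 at 71.4% and 83.3% in the same libraries. Astrocyte 1 and microglia 2 shared 98761398, at 86.7% and 71.4%, 98730984, at 64.7% and 50%, and 98737651, an AAC site, at 100% and 66.7%. The AAC site at 98738138 was the only one shared by the 2 libraries labelled astrocyte, at 75% and 100%. Astrocyte 1 was thus higher than microglia 2 at each of the 3 bases they shared, and microglia 2 higher than astrocyte 2 at both of theirs.

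**Figure D2:**
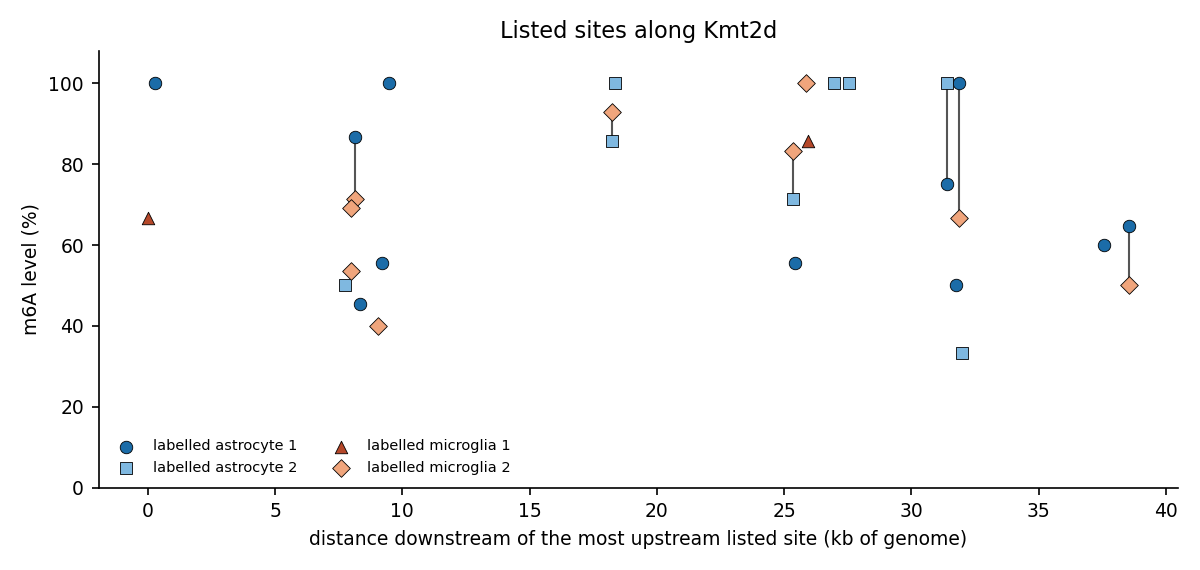
Level in percent (vertical axis) of the listed Kmt2d sites against their genomic distance in kb downstream of the most upstream listed site (horizontal axis), with 1 symbol per library. Vertical lines join values of the same base in 2 libraries, which occurs at 6 of 24 sites, and the sites fall into runs, the densest with 8 sites.

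Kmt2a, known as MLL1 and a regulator of Hox genes, had 9 sites. It was listed in all 4 libraries, with 4, 2, 1 and 3 sites in astrocyte 1 and 2 and microglia 1 and 2. Only the AAC base at 44722269 on chromosome 9 was listed more than once, at 70% in astrocyte 1 and 100% in microglia 1. Kmt2e, a divergent relative, had 1 site in each library, at 4 different bases, with levels of 60% and 44.4% in astrocyte 1 and 2, and of 60% and 80% in microglia 1 and 2. Kmt2c, the partner of Kmt2d in enhancer methylation, had 6 sites, 3 in astrocyte 1 (33.3% to 100%) and 3 in microglia 2 (50% to 62.5%), and none listed in the other 2 libraries. No base of Kmt2c was shared, although an astrocyte 1 site and a microglia 2 site lay 70 nucleotides apart. So all but 1 of the 7 shared bases in the Kmt family were in Kmt2d.

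Demethylases of the Kdm family had 26 sites in 10 genes and a single shared base. Kdm3b, which removes methyl groups from lysine 9 of histone H3, had 6 sites: 3 in astrocyte 1 at 45.5% to 71.4%, 1 in astrocyte 2 at 87.5%, and 2 in microglia 2 at 50% and 63.2%. Kdm2a, which binds unmethylated CpG islands, had 3 sites in astrocyte 2, each at 100%, 1 in astrocyte 1 at 55.6% and 1 in microglia 1 at 80%. In Kdm3a, a close relative of Kdm3b, the libraries listed neighbouring bases in place of the same base. On chromosome 6, 71566552 stood at 75% in astrocyte 1 and 71566505, 47 nucleotides away, at 77.8% in microglia 2. Likewise 71597173 stood at 40% in astrocyte 1 and 71597140, 33 nucleotides away, at 37.5% in microglia 2. These Kdm3a neighbours thus had levels within a few points of each other in different libraries, at a high and at a low level. The neighbours in Kmt2c given above both stood at 60%. This did not hold in Kmt2d, where 98737560 at 33.3% in astrocyte 2 lay 91 nucleotides from 98737651, at 100% and 66.7% elsewhere. The shared base of the Kdm family was in Kdm6b, a demethylase of lysine 27 on histone H3, at 69296454 on chromosome 11, with 80% in astrocyte 1 and 50% in astrocyte 2. It was also 1 of the 4 member sites in lower-case sequence.

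Setd genes, most of which encode SET-domain methyltransferases, had 12 sites in 5 genes, and none was listed in microglia 1. Setd2, the enzyme that trimethylates lysine 36 of histone H3, had 5 sites at 5 bases, 2 at 100% in astrocyte 2, 1 at 80% in astrocyte 1, and 2 at 57.1% and 87.5% in microglia 2. Setd5 had 3 sites, and its base at 113128029 on chromosome 6 differed most of all shared member sites, with 100% in astrocyte 1 and 58.3% in microglia 2. Setd1b, a further methyltransferase of lysine 4 on histone H3, had 1 site at 100% in astrocyte 1 and another at 100% in astrocyte 2.

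The chromodomain remodellers of the Chd family had 22 sites in 8 genes, with 10, 6, 0 and 11 in astrocyte 1 and 2 and microglia 1 and 2. Chd9 had 7, all GAC, spread over 121 kb of chromosome 8. At 91716216 it stood at 80% in astrocyte 1 and 46.7% in microglia 2, and at 91760658 at 40% and 25.0% in the same libraries. Chd6 had 6 sites, and its AAC base at 160884037 on chromosome 2 was listed in 3 libraries, at 77.8% in astrocyte 1, 92.3% in astrocyte 2 and 100% in microglia 2. Chd2 had 4 sites at 23.5% to 50%, a low range among the members. Chd4, the remodelling ATPase of NuRD, had 1 site, at 125087220 on chromosome 6, listed at 87.5% in astrocyte 1 and 57.1% in astrocyte 2. At all 3 bases of Chd9 and Chd6 listed in both astrocyte 1 and microglia 2 the values differed, with astrocyte 1 higher in Chd9 and microglia 2 higher in Chd6.

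Subunits of the BAF and PBAF remodelling complexes fall under Arid and Smarc. The Arid family had 6, 9, 4 and 1 sites in astrocyte 1 and 2 and microglia 1 and 2. Over its 20 entries, genes outside these complexes included, the level had a median of 93.8% and a minimum of 60%. By gene, the median was 80% in Arid2 and 81.7% in Arid1a, and 100% in both Arid5b and Arid3a. The family median is therefore not that of the complex subunits alone. The Arid median stood above that of all members in astrocyte 1 (81.7% against 75%) and astrocyte 2 (100% against 92.3%). In microglia 1 it stood below, at 80% against 100%. Arid2, a PBAF subunit, had 5 sites, 2 in astrocyte 1, both at 80%, and 3 in astrocyte 2 at 80% to 100%. Arid1a, a BAF subunit, had 4 sites at 4 bases, 80% and 83.3% in astrocyte 1, 100% in astrocyte 2 and 60% in microglia 1. Arid5b, a DNA-binding cofactor of a histone demethylase, had 4 sites, and 67934364 on chromosome 10 stood at 100% in both astrocyte 1 and microglia 1. Arid3a, a DNA-binding protein outside these complexes, had a base at 79766279 on chromosome 10 that stood at 100% in astrocyte 2, microglia 1 and microglia 2. The family's only site in microglia 2 was this one.

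Smarc genes each had 1 site. In Smarcal1, an annealing helicase of stalled replication forks, the GAC base at 72622376 on chromosome 1 was listed at 100% in all 4 libraries, which makes it the only member site listed in all of them (0.595% of 168, background 0.783% of named-gene sites). Smarca4, the ATPase BRG1, had a site at 71.4% in microglia 2, and Smarcad1, a remodeller with a role in heterochromatin, had one at 92.3% in astrocyte 2. No Smarc gene other than Smarcal1 was listed in more than 1 library.

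Among genes for histone acetylation and its readers, Ep300 had 6 sites, Crebbp 4 and Ep400 2. Ep300 encodes the acetyltransferase p300, and its base at 81470513 on chromosome 15 stood at 84.2% in astrocyte 1 and 90.9% in microglia 2, while a base 45 nucleotides downstream was listed only in astrocyte 1, at 25.9%. Crebbp, the paralogue of Ep300, had 4 sites at 4 bases, with 80% in astrocyte 1, 50% in astrocyte 2, and 42.9% and 100% in microglia 2. In Ep400, a remodelling ATPase of the TIP60 complex, 110812454 on chromosome 5 was listed at 91.7% in astrocyte 1 and at 100% in astrocyte 2 and microglia 1. Bromodomain genes of the Brd family, which bind acetylated histones, had 4 sites, all in the libraries labelled astrocyte. Over all named genes 4617 of 10598 distinct sites were listed in a library labelled microglia, so 4 sites are too few to read as a pattern. Brd2 was listed at 30.4% in astrocyte 1 and at 100% at another base in astrocyte 2, and Brd8 at 100% in astrocyte 1.

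The deacetylases of the Hdac family had 9 sites, none at 100% and none listed in astrocyte 2 or microglia 1, the libraries with the highest member means. Of these sites, 7 were in astrocyte 1, with a median of 42.9% against 75% over all members of that library. The other 2 were in microglia 2, at 50% and 90%, with a median of 70% against 62.8% over its members. The family was thus low in astrocyte 1, and 2 sites are too few to place it in microglia 2. Hdac3, the deacetylase of the NCoR complex, had 50% and 42.9% in astrocyte 1 and 50% at yet another base in microglia 2. Hdac4, a class IIa enzyme, had the lowest level of all members, 14.8%, and a second site at 60%, both in astrocyte 1, and Hdac11 had 41.7% and 28.6% in the same library. The highest values of the family were 80% for Hdac6, a mainly cytoplasmic deacetylase of tubulin, in astrocyte 1, and 90% for Hdac9, another class IIa enzyme, in microglia 2. Bcorl1, a Polycomb-associated corepressor, had 1 site at 100% in astrocyte 1 and another at 95.2% in astrocyte 2. Asxl1 and Asxl2, cofactors of the histone H2A deubiquitinase Bap1, had 5 sites between them at 75% to 100%, listed in astrocyte 1 and microglia 2 only. The Hdac and Asxl levels overlapped in both of these libraries. Over all named genes only 3247 of 10598 distinct sites were listed in astrocyte 2 or microglia 1. That no Hdac or Asxl site was listed there is therefore not read as a trait of these families.

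The number of sites per gene was compared with that in other named genes. Over the 4 libraries the mean was 3 distinct sites per member gene (median 2), against 1.91 (median 1) over 5470 other named genes. A single site was found in 21 of 56 members, or 37.5%, against 59.0%, and 5 or more in 11, or 19.6%, against 6.05%. Without Kmt2d the mean was 2.62. Within libraries, members minus other named genes came to 0.35 and 0.27 sites per gene in astrocyte 1 and 2, and to -0.05 and 0.49 in microglia 1 and 2. The difference was positive in 3 of 4 libraries and did not pass an exact two-sided sign-flip permutation test over the libraries (p = 0.25, adjusted p = 0.278 over 10 measures), where 4 libraries cannot give a p below 0.125. Close spacing was about as frequent as elsewhere: 26 of 168, or 15.5%, had another site of the gene within 100 nucleotides, against 14.4% in other named genes. Of the 13 neighbouring pairs within that distance, 6 were formed by bases with no library in common, as in Kdm3a. The same count was not made for other named genes, so it is not read as a trait of the members. Over all named genes 9568 of 10598 sites were listed in 1 library only.

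**Figure D3:**
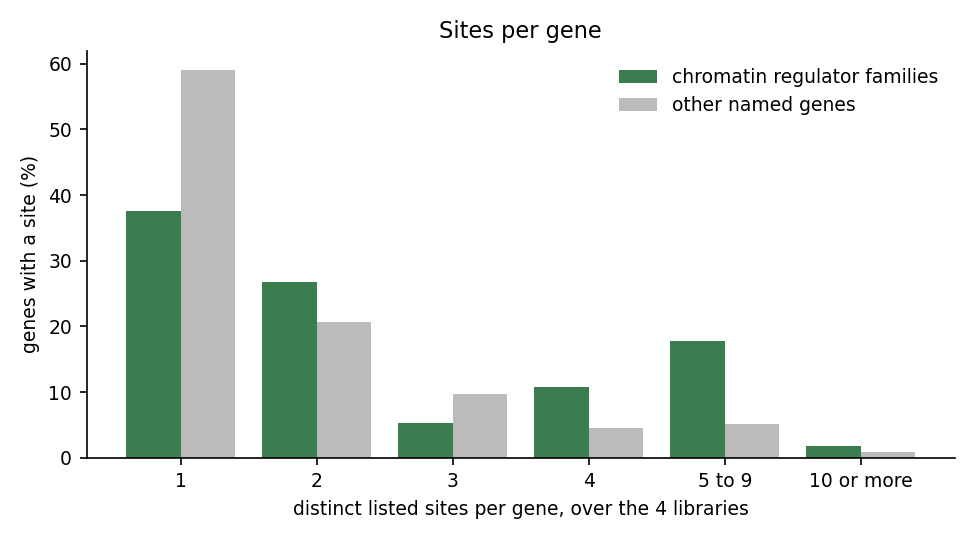
Percent of genes with a site (vertical axis) by their number of distinct sites over the 4 libraries (horizontal axis), for the 56 chromatin regulator genes and the 5470 other named genes. The member bars are lower at 1 site, 37.5% against 59.0%, and higher at 5 to 9 sites, 17.9% against 5.17%.

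Levels at member sites were compared with other named genes of the same library. The mean member level was 70.4% ± 24.4 (SD over 71 sites) in astrocyte 1, 82.6% ± 21.2 (49 sites) in astrocyte 2, 85.6% ± 17.8 (13 sites) in microglia 1 and 66.8% ± 20.7 (60 sites) in microglia 2. Other named genes stood at 66.5%, 72.2%, 82.5% and 59.5%. Members were therefore higher in 4 of 4 libraries, by 3.92, 10.3, 3.03 and 7.33 points, with a mean of 6.16 ± 3.34 (SD, n = 4 libraries, exact two-sided sign-flip permutation p = 0.125, the smallest that 4 libraries can give, adjusted p = 0.25). The gap was seen at the low end of the scale. Levels below 40%, a bound chosen after the values were seen, made up 11.3%, 4.08%, 0% and 5.0% of member sites in astrocyte 1 and 2 and microglia 1 and 2, against 21.3%, 17.0%, 11.6% and 24.1% of other sites. With 0 of 13 sites in microglia 1 the exact interval reaches 24.7%. The shares at 100% differed in both directions, with 23.9%, 44.9%, 53.8% and 13.3% of member sites against 27.4%, 37.7%, 60.4% and 15.3%. For GAC sites alone members were higher by 8.01 points on average and for AAC sites alone by 4.14, each in 4 of 4 libraries (exact p = 0.125 in each). The median level tied in microglia 1 and was higher for members in the other 3 libraries (exact p = 0.25).

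**Figure D4:**
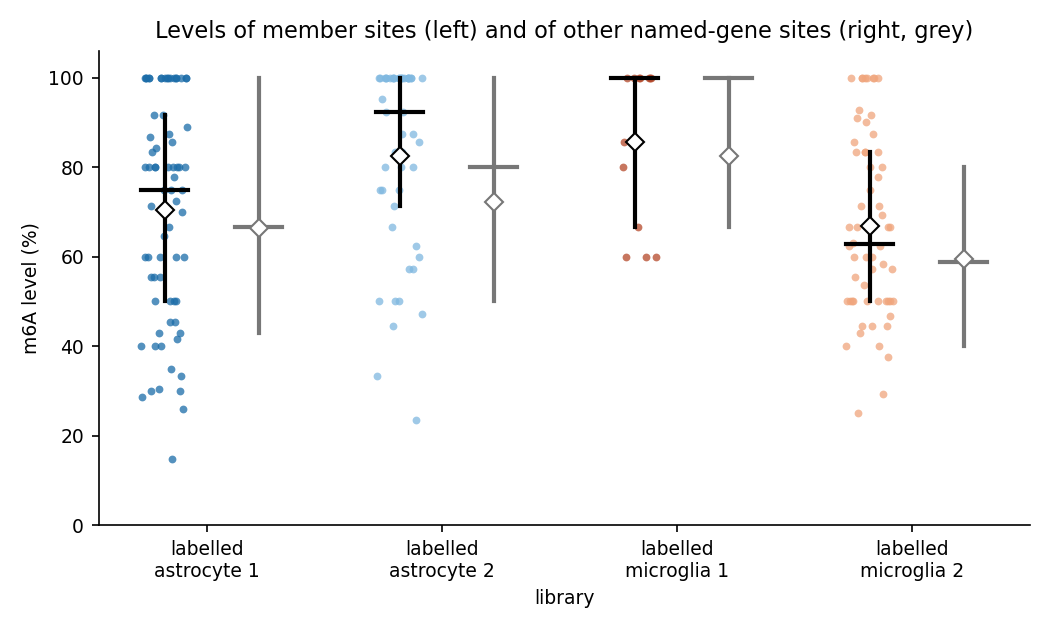
Level in percent (vertical axis) of each member site by library (horizontal axis), drawn as coloured points, with the member median (black horizontal bar), quartiles (black vertical bar) and mean (diamond). The same summaries for other named genes are in grey to the right, and the member mean lies above the grey mean in all 4 libraries, while the points of the lowest levels are few.

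Sharing was far greater for genes than for bases. Of 56 member genes, 33 were listed in 2 or more libraries, or 58.9% (background 38.9% of named genes), 18 in 3 or more, or 32.1% (background 11%), and 4 in all of them, or 7.14% (background 2.37%), namely Kmt2a, Kmt2d, Kmt2e and Smarcal1. Of 168 member sites, 20 were listed in 2 or more libraries, or 11.9% (7.43 to 17.8, background 9.72%), and 4 in 3 or more, or 2.38% (background 2.59%). The site shares were near the background, and those of genes were above it. Member genes also had more distinct sites each, with a mean of 3 against 1.91 in other named genes. The part of this in the gene shares was not tested. Of the 33 genes found in several libraries, 13 shared at least 1 base and 20 did not, so 39.4% shared a base, against 43.7% of such genes elsewhere. By family, 7 of 48 Kmt sites were shared, 4 of 22 in Chd, 2 of 12 in Crebbp, Ep300 and Ep400, and 2 of 17 in Arid. Setd, Smarc and Kdm had 1 shared site each, and Hdac, Brd and Asxl none. In 3 of the 20 shared sites, in Smarcal1, Arid3a and Arid5b, every listed value was 100%.

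**Figure D5:**
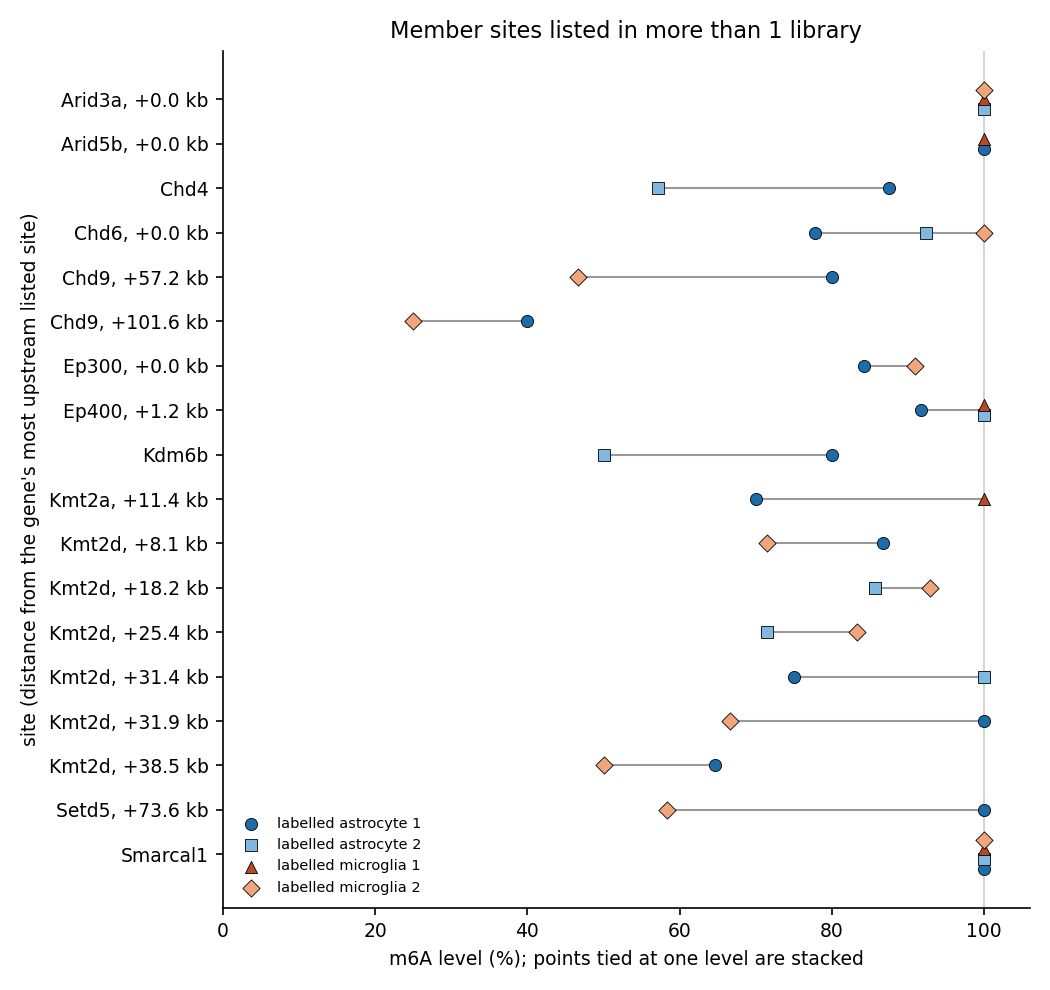
Level in percent (horizontal axis) at 18 member sites listed in more than 1 library, those of all families but Ncor and Bcor (vertical axis, with the distance from the gene's most upstream listed site where it has several), 1 symbol per library, with lines joining values of the same base. Smarcal1, Arid3a and Arid5b sit at 100% in every library that lists them, and Setd5 has the longest line, from 58.3% to 100%.

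Astrocyte 1 and microglia 2 shared the most bases, 11 (15.5% of the member sites of astrocyte 1 and 18.3% of those of microglia 2). Among other named genes this pair also shared the most bases, 12.9% and 16.3% of the 2 lists, so the member shares lay near the general ones. At these bases astrocyte 1 was higher at 8, lower at 2 and tied at 1, with a mean difference of 15.9 points. Over the 607 bases of other named genes shared by the same libraries the mean difference was 4.21 points in the same direction. There astrocyte 1 was higher at 275, lower at 187 and tied at 145. The 11 member bases are few and several lie in the same gene, as in Kmt2d and Chd9. The larger mean difference is therefore not read as a trait of the members. The bases shared by the other 5 pairs of libraries numbered 2 to 6. Astrocyte 1 with astrocyte 2 shared 6, with a median absolute difference of 19.8 points and no common direction, 2 being higher in astrocyte 1, 3 in astrocyte 2 and 1 tied. Microglia 1 with microglia 2 shared 2, both at 100%. For genes the largest overlap was between the libraries labelled astrocyte, with 23 of 38 and 23 of 30 member genes, where 60.5% and 76.7% of their lists were shared. Over other named genes those shares were 21.4% and 39.4%, with 665 genes in common. There the largest overlap was between astrocyte 1 and microglia 2 instead, with 1368 genes. In every pair of libraries the member gene shares were above those of other named genes. Astrocyte 2 and microglia 2 shared 53.3% and 51.6% of their member genes, against 34.3% and 22.4%. For astrocyte 1 and microglia 2 the shares were 47.4% and 58.1%, against 43.9% and 53.1%. The higher shares are thus not particular to the label astrocyte.

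The comparison by label set the share of sites and the levels of these genes in the libraries labelled astrocyte against those labelled microglia. Because the marker sites of the replicate 2 libraries ran against their labels, it cannot decide on a difference between astrocytes and microglia. Member sites made up 1.48% of named-gene sites in astrocyte 1 (95% interval 1.16 to 1.87), 2.09% in astrocyte 2 (1.55 to 2.75), 1.22% in microglia 1 (0.651 to 2.08) and 1.59% in microglia 2 (1.21 to 2.04). The labels overlapped, and the difference of 0.38 points in favour of the libraries labelled astrocyte did not pass an exact two-sided permutation test (p = 0.667, smallest possible p = 0.333). It was 0.26 points in the replicate 1 libraries alone and 0.5 points in the replicate 2 libraries alone. The mean member level differed by 0.31 points between the labels (76.5% against 76.2%, exact permutation p = 1), but by -15.1 points in the replicate 1 libraries and 15.8 points in the replicate 2 libraries. This difference within replicates thus had opposite signs, so its direction over all libraries depends on which are used. The lower means were in astrocyte 1 and microglia 2 (70.4% and 66.8%), which listed 12 and 11 astrocyte markers. The higher were in astrocyte 2 and microglia 1 (82.6% and 85.6%), which listed 12 and 11 microglia markers. Named-gene sites numbered 4790 and 3782 in the former and 2348 and 1066 in the latter. The part of either in the levels was not tested. Other named genes went the same way. Their means were 66.5% in astrocyte 1 against 82.5% in microglia 1, and 72.2% in astrocyte 2 against 59.5% in microglia 2. The opposite signs are therefore not particular to the members.

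Of the 168 sites, 3 were listed in both libraries labelled astrocyte and neither labelled microglia, or 1.79% (background 0.651%). They were the bases in Chd4, Kdm6b and Kmt2d given above. None was listed in both libraries labelled microglia and neither labelled astrocyte (background 0.396%). The corresponding counts of genes were 6 of 56, or 10.7% (background 4.09%), for the label astrocyte, namely Arid2, Bcorl1, Brd2, Chd4, Kdm6b and Setd1b, and 0 of 56 for the label microglia (background 0.869%). Member genes were in general listed in 2 or more libraries more often, at 58.9% against 38.9% of named genes. The part of this in the count for the label astrocyte was not tested, and these counts are too small to read as a pattern. In the replicate 1 libraries alone, 67 member sites were in astrocyte 1 only, 9 in microglia 1 only and 4 in both. In the replicate 2 libraries alone, 44 were in astrocyte 2 only, 55 in microglia 2 only and 5 in both. The order of the labels was the same over all named-gene sites, with 4457 and 733 in 1 library only for replicate 1 and 2106 and 3540 for replicate 2, so it is not particular to the members.

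Levels at single bases were tested with limma on log2 odds over all sites of the series listed in all 4 libraries. Of 354 testable sites 0 passed at an adjusted p of 0.05 (background 0%), with 16 at an unadjusted p below it. The only member site in that set, in Smarcal1, was at 100% throughout and could not be tested for want of spread. When sites listed in 3 libraries were admitted as well, limma called 0 of 694, or 0% (16 at an unadjusted p below 0.05), and 2 member bases could be tested. These were the bases in Chd6 and Ep400 given above, neither of which was called. Each was listed at 100% in a single library labelled microglia, so the microglia arm had 1 sample, and the size of the fitted difference depends on the limit of 0.99 set on levels and is not given.

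Chromatin genes with other names, some of them partners in the same complexes and others in separate pathways, were described from lists of 114 genes. Of these 52, or 45.6% (background 22% of protein-coding symbols), had a site, with 105 distinct sites, and 12 sites were listed in 2 or more libraries. The number of these genes with a site was 32 and 21 in astrocyte 1 and 2, and 5 and 26 in microglia 1 and 2. All named genes with a site numbered 3152, 1716, 940 and 2609 in the same order of libraries. Remodellers outside the Chd and Smarc families had sites in 7 of 9 genes, led by Srcap, the ATPase that deposits the variant H2A.Z, with 2 and 1 sites in astrocyte 1 and 2, and 0 and 5 in microglia 1 and 2. Other histone methyltransferases had sites in 8 of 12, led by Nsd1, which methylates lysine 36 of histone H3, with 3 and 1, and 0 and 2 sites in the same order. Genes of DNA methylation had sites in 6 of 11, led by Tet2 and Tet3, which oxidise methylcytosine, with 7 and 5 distinct sites. Coverage was lower for Polycomb genes, with 8 of 25, for BAF and PBAF partners, with 4 of 13, for NuRD partners, with 3 of 9, and for corepressor partners, with 3 of 8. COMPASS partners, which assemble with the Kmt2 enzymes, had sites in 4 of 10, with Hcfc1 at 4 sites and no site in any of the 10 in astrocyte 2. Acetyltransferases of the Kat group had sites in 4 of 7 and cohesin and insulator genes in 5 of 10.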

How the data were processed

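The authors deposited 1 headerless table of 7 columns per library: the chromosome, start and end of a site, its gene, the m6A level, the strand and the 3-mer. The authors deposited the level as a fraction, without read counts or coverage, and it is printed here as a percent. Per the series' design text GLORI-tools called the sites, and the submitters' processing notes name STAR and mm39. The calling threshold was not given in the sources used here, and no listed level lay below 10%. Per the labels' protocols total RNA went into a stranded kit for low input.

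Positions are 1-based in mm39. Sites were matched by chromosome, position and strand. Gene names are the authors', and a RefSeq table of GRCm38.p6 served only to count symbols. Read counts were to be tested at a minimum of 20 reads, but the files hold levels only. Levels were limited to 0.01 to 0.99 and tested with limma 3.58.1 on log2 odds, with Benjamini-Hochberg adjustment over all sites tested. Sites without spread within a label were not tested, and the test was tried on simulated data. Labels were compared by exact permutation in scipy 1.17.1, and intervals cover counting of sites only. The replicates are not stated to be separate animals, so p-values measure the spread between these libraries. Genes given with values were those listed in all 4 libraries, the 3 of each family with most sites, and those with a base in 3 or more libraries, with Chd4 and Kdm6b as bases of 1 label and Arid1b, Hdac1, Hdac2, Kdm1a, Ncor1 and Smarcb1 as examples without a site. Hdac6 and Hdac9 were named after their values were seen. Some genes that this rule names are not reported here. Members and lists were chosen with earlier results of these data known. The comparison with other named genes was added after the data were seen.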

Additional observations from a re-analysis of the deposited data

How the results depend on the processing

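The difference between labels in the share of sites kept its sign in every alternative run, from 0.08 points without astrocyte 2 to 0.68 points without astrocyte 1, but its size rests on single libraries, with 0.20 without microglia 1 and 0.57 without microglia 2. The difference in mean level had no stable sign. It was -0.47 points with sites at 100% left out, -0.19 without Kmt2d, -15.1 in the replicate 1 libraries alone, and between -9.07 and 9.70 with 1 library left out, turning negative without astrocyte 2 or microglia 2. The cause was not tested. Taken within replicate numbers as a replicate block, the values are 0.31 and, for the share, 0.38, the same by arithmetic with 1 library per label and number. The share of sites listed in 2 or more libraries was 5.26% to 11.7% with 1 library left out, lowest without astrocyte 1, since fewer libraries can list a site. Entries numbered 122 to 180 in the same way, fewest without astrocyte 1. Leaving out sites at 100% took astrocyte 2 from 49 to 27 entries and microglia 1 from 13 to 6. With the replicate number as a block limma called 0 of 354 sites (10 at an unadjusted p below 0.05), and with crossed numbers 1. Same-numbered libraries deviated with a correlation of -0.12 over 1100 sites, and the labels do not say that numbers mark shared animals. Averaged over libraries, members stood above other named genes in level in each of the 12 alternatives run, chosen after the data were seen, by 3.85 to 10.6 points. With the median, or with sites listed in 1 library only, this held in 3 of 4 libraries. No limma setting called a member, but a member could be tested in only 3 of the 11 settings, and then at 1 or 2 sites, so this says nothing of stability. Read depth is unknown, so the precision of a single level cannot be given.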
